A study of Homo sapiens with 5 samples.

Results

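A set of regulatory long non-coding RNAs, 8 genes of the 30476 in the count table and of the 6737 annotated there as long non-coding RNA, was described in ovarian cancer cells with acquired resistance to EZH2 inhibition. The members were FIRRE, MIR100HG, MALAT1, NEAT1, H19, HOTAIR, KCNQ1OT1 and MEG3, and each was found by matching its symbol to the Ensembl identifier of 1 row. RNA-seq had been performed on total RNA from TOV21G, an established ovarian clear cell carcinoma line that carries mutated ARID1A, a subunit gene of the SWI/SNF chromatin remodeling complex. The study asked what had changed in cells that acquired resistance to inhibitors of EZH2, the catalytic subunit of the repressive complex PRC2. EZH2 inhibitor-resistant (EIR) cells were selected with stepwise rising GSK126, an EZH2 inhibitor, from 5 to 20 uM. The 5 libraries comprised 1 library of parental TOV21G cells and 4 libraries of EIR cells. These 4 came from EIR clone 3 and EIR clone 4, each with 1 untreated and 1 GSK126-treated library. All 5 libraries share the TOV21G background and its ARID1A mutation. Each clone is 1 clone, the parental cells have 1 library, and nothing in the labels says that libraries came from separate cultures. P-values therefore measure only the spread between these libraries, which may be technical. The labels do not give the dose or duration of the GSK126 treatment.

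Total counts ranged from 25479238 to 30764963 per library. The libraries were compared over 11564 expressed genes, those averaging 100 or more normalized counts (counts divided by the size factor of the library). The SD of the log2 ratio was 0.24 between the treated and untreated library of clone 3 and 0.39 in clone 4, 0.82 to 0.86 between clones, and 1.05 to 1.14 between EIR and parental libraries. Ratios to parental cells fell with the GC content of a gene, with slopes of -0.50 to -0.38 log2 per 10 percentage points. GC-corrected values are therefore given beside some of these ratios, and those given without one may also be moved by GC content. Of the clear cell carcinoma markers examined, PAX8, a Müllerian transcription factor, held 3031 to 4491 counts in every library, whereas the epithelial adhesion gene EPCAM held 398 to 498 counts in parental and clone 3 libraries and 0 and 1 in the untreated and treated clone 4 libraries. The keratin gene KRT7 held 81 to 199 counts, and NAPSA, an aspartic protease gene, held 2 to 53 counts. Of these 4 markers, DESeq2 called KRT7 higher in EIR cells and EPCAM and NAPSA lower in clone 4 than in clone 3, and edgeR called 0 and 2. The calls of KRT7 and NAPSA were each lost without either clone 3 library. In bulk RNA, fewer cells expressing a transcript and less transcript per cell cannot be told apart.

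Long non-coding RNAs are transcripts that are not translated, and many act as RNA in the nucleus. MALAT1 is abundant in nuclear speckles, where splicing factors concentrate, and NEAT1 is the scaffold on which paraspeckles form. H19, KCNQ1OT1 and MEG3 are products of imprinted domains and are transcribed from 1 parental allele in most tissues; KCNQ1OT1 silences neighboring genes in cis. HOTAIR lies in the HOXC cluster and is known for its proposed link to PRC2 and HOXD genes. FIRRE is an X-linked RNA with internal repeats that binds the nuclear matrix protein HNRNPU. MIR100HG and H19 are also hosts of microRNAs, which are cut from their transcripts.

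The mature microRNAs of both host genes are shown because MIR100HG and H19 were the members that differed most between the clones, and because the seed (bases 2 to 8, in capitals) of let-7 defines the target site counted further on. The sequences are from RefSeq on GRCh38.p14, written 5′ to 3′, and those hosted by MIR100HG come first, followed by those of H19.
hsa-miR-100-5p: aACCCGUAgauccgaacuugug
hsa-let-7a-5p: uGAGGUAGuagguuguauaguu
hsa-miR-125b-5p: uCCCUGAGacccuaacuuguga
hsa-miR-675-5p: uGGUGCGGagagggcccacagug
hsa-miR-675-3p: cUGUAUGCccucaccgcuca
The 5 seeds differ from each other. Of the 6 hosted precursor genes looked for, 0 matched a row of the table, so the microRNAs themselves were not analysed here and the values that follow are those of the host transcripts.

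The members covered a wide range of abundance. Per kilobase of annotated exon, the mean level over the 5 libraries was 12141 normalized counts for MALAT1, 214.5 for NEAT1, 52.7 for KCNQ1OT1, 48.8 for H19, 32.6 for HOTAIR, 12.6 for MIR100HG, 10.3 for FIRRE and 0.197 for MEG3. MALAT1 was highest and MEG3 lowest also per kilobase of the median transcript, but KCNQ1OT1 then stood above NEAT1, and MIR100HG and HOTAIR above H19. KCNQ1OT1 and H19 do not differ beyond the spread of their levels over the libraries (21.6 to 93.0 and 9.63 to 145 per kilobase of exon), and neither do MIR100HG (0.164 to 47.1) and FIRRE (0 to 15.9). Together the 8 transcripts held 0.295% of all counts in the parental library, 0.545% and 0.407% in untreated clones 3 and 4, and 0.359% and 0.802% in treated clones 3 and 4. Nearly all of this was MALAT1, since the other 7 members held 0.0263% to 0.0549%.

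**Figure D1:**
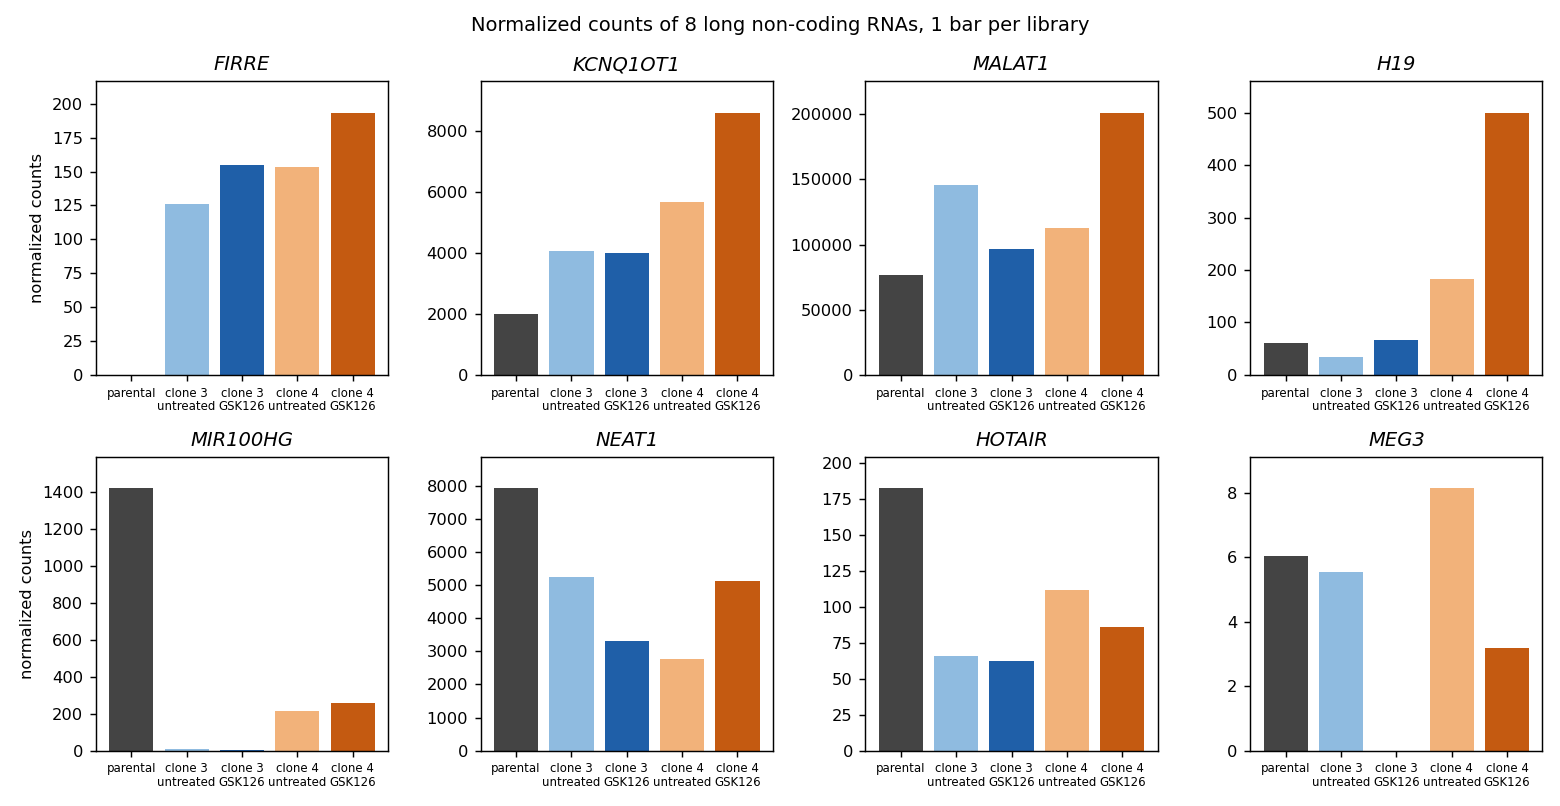
Normalized counts (vertical axis, linear and separate for each gene) of the 8 transcripts in the 5 libraries, 1 bar per library with no error bar because each bar is 1 library. FIRRE has no bar in parental cells, MIR100HG is tallest there, H19 is tallest in the clone 4 libraries, and MEG3 does not exceed 8.14 normalized counts.

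FIRRE and MIR100HG had been chosen for their values in these libraries. Levels in EIR against parental cells and in clone 4 against clone 3 are therefore given as descriptions, with no test of any member. The gene lists were also chosen with earlier results of these data known. P-values of listed genes are therefore descriptive and do not come from an independent choice. With DESeq2, 25.5% of the 16288 genes tested passed an adjusted p of 0.05 between EIR and parental cells (12.4% higher, 13.2% lower), and with the quasi-likelihood test of edgeR 11.2% did (4.5% higher, 6.73% lower). Against this background and before GC correction, FIRRE, KCNQ1OT1 and MALAT1 were above the parental value in all 4 EIR libraries, MIR100HG, NEAT1 and HOTAIR were below it in all 4, H19 was above it in 3, and MEG3 was above it in 1.

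FIRRE (ENSG00000213468, chromosome X, 130822807 to 130964890, minus strand, GRCh37) had 0 counts in parental cells, 136 and 151 counts in untreated clones 3 and 4, and 157 and 183 counts in treated clones 3 and 4. Parental cells thus gave no read and all EIR libraries gave more than 100. The count of 0 allows up to 3 counts in the parental library (1.01e-05% of its counts), a limit for counting error alone, since PCR copies carry no molecular identifiers and reads are not independent molecules. In normalized counts the EIR mean was 157 ± 27.8 (SD, n = 4), at least 52.0-fold higher than this limit of 3 counts, which is 3.02 normalized counts. Between libraries of the 2 clones FIRRE differed little, by 0.29 log2 in untreated and 0.32 in treated cells, with clone 4 higher.

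The promoter of FIRRE is shown because it belongs to the member with no read in parental cells. It covers 250 bases before to 50 bases after the annotated start (RefSeq, GRCh38.p14, chrX:131830594-131830893, minus strand, 5′ to 3′), with the dinucleotide CG in capitals.
FIRRE promoter: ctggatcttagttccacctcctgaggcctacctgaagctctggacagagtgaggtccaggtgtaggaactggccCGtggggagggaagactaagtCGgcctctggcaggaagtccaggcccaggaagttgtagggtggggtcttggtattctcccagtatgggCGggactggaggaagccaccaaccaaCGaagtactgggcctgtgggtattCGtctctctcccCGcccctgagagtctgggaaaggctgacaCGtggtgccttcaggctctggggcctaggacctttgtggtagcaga
It holds 7 CG dinucleotides, and 63.2% of the 35116 promoters of the same length hold at least as many (median 14). Methylation was not measured in these libraries.

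Genes around FIRRE showed no change of that size. The 5 expressed genes within 1 Mb had a median log2 ratio to parental cells of 0.13 to 0.67 in the 4 EIR libraries, against 7.98 to 8.60 for FIRRE on the log2(normalized count + 0.5) scale. With GC correction the medians of these 5 genes were -0.18 to 0.53, against 7.85 to 8.50 for FIRRE. The genes whose profile over the 5 libraries lay closest to that of FIRRE, by Euclidean distance of centered log2 values among 11376 genes, were CSRNP3 (distance 0.52), RSPO3 (0.60) and MAN1A1 (0.77). CSRNP3, a nuclear protein gene, went from 1 count in the parental library to 282 to 418 in the EIR libraries. RSPO3, which encodes a secreted enhancer of WNT signaling, had 0 and 114 to 228 counts.

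Proteins that bind FIRRE or the chromatin loops it is linked to were examined as 5 genes, of which 2 rose in EIR cells. Another 3 did not pass the test and 0 fell, where 12.4% of all genes tested rose with DESeq2. The median log2 fold change of the 5 genes was 0.23 (all tested genes 0.00). The cohesin subunit gene SMC3 rose from 3497 normalized counts in the parental library to 6945 ± 1445 (SD, n = 4) in the EIR libraries, by 0.99 log2 (SE 0.30, adjusted p 0.00748 by DESeq2). RAD21, the cohesin subunit that closes the ring, rose from 5452 to 7884 ± 242 (SD, n = 4), by 0.53 log2 (SE 0.13, adjusted p 0.00079 by DESeq2). In edgeR neither passed (adjusted p 0.0815 and 0.0607), and with GC correction the mean log2 ratio of RAD21 was 0.02 and that of SMC3 0.46.

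MIR100HG (ENSG00000255248, chromosome 11, 121899033 to 122427429, minus strand, GRCh37) had 1410 counts in parental cells, 9 and 211 counts in untreated clones 3 and 4, and 5 and 244 counts in treated clones 3 and 4. The parental library was highest, the clone 4 libraries were intermediate and the clone 3 libraries held fewer than 10 counts. The mean log2 ratio to parental cells was -7.68 in clone 3 and -2.59 in clone 4. Clone 4 exceeded clone 3 by 4.61 log2 in untreated and 5.57 in treated cells, a mean difference of 34.0-fold. The 8 expressed genes within 1 Mb had median log2 ratios of -0.18 to 0.11 to parental cells. Of the genes that overlap MIR100HG, BLID had 0 to 6 counts, and the strand used in counting is not stated.

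The profile of MIR100HG was followed most closely by TMTC1 (distance 1.84), COMP (2.34) and SELENBP1 (2.36). These distances are larger than those of the nearest genes of every other member compared. COMP, which encodes a cartilage matrix protein, had 4488 counts in parental cells, 137 and 148 in clone 3 and 1489 and 2538 in clone 4. TMTC1, a gene for an endoplasmic reticulum mannosyltransferase, had 4082 counts in parental cells, 35 and 44 in clone 3 and 364 and 452 in clone 4.

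Genes that regulate let-7 or are its known targets were examined because MIR100HG hosts a let-7 microRNA. Of 7 genes tested between EIR and parental cells, 1 rose, 3 fell and 3 did not pass, with a median log2 fold change of -0.85. In edgeR 1 rose and 2 fell. The shares of all genes tested were 12.4% higher and 13.2% lower with DESeq2, and 4.5% and 6.73% with edgeR. LIN28A, which encodes a protein that blocks let-7 maturation, fell from 1450 counts in the parental library to 32 and 6 in the clone 3 libraries and to 56 and 60 in those of clone 4. Its log2 fold change was -5.23 (SE 1.34, adjusted p 0.00096 by DESeq2, adjusted p 0.0243 by edgeR), and it passed in all 9 alternatives (edgeR, 2 other scalings, a filter on low counts, each EIR library left out, and summed libraries per clone). IGF2BP2, an RNA-binding protein gene, fell by 0.85 on the log2 scale (SE 0.14, adjusted p 3.61e-08 by DESeq2, 9 of 9 alternatives). DICER1, which encodes the enzyme that cuts microRNA precursors, rose by 0.69 (SE 0.16, adjusted p 0.00028 by DESeq2), and did not pass with the 2 libraries per clone summed (adjusted p 0.0524). ARID3B, a DNA-binding protein gene, fell by 0.75 (SE 0.25, adjusted p 0.0129 by DESeq2) but passed in only 4 of 9 alternatives, and was lost without either untreated library and without the treated clone 3 library.

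Between the clones, 2 of 7 of these genes were lower in clone 4 and 0 were higher, where 9.83% of 17695 genes tested differed with DESeq2 (3.31% higher, 6.52% lower) and 15.3% with edgeR (5.84% higher, 9.46% lower). IGF2BP1, an oncofetal RNA-binding protein gene, held 12 and 21 counts in the clone 4 libraries, against 603 and 657 in those of clone 3 and 797 in the parental one. The fitted log2 difference was -5.17 (SE 0.40, adjusted p 2.62e-36 by DESeq2, 9 of 9 alternatives). HMGA2, which encodes a chromatin architectural protein, gave 4723 and 4597 counts for clone 4 against 7808 and 8126 for clone 3 (log2 difference -0.66, SE 0.16, adjusted p 0.00105 by DESeq2). The call of HMGA2 was lost without the treated clone 3 library (adjusted p 0.124). The site complementary to the let-7 seed, CTACCTC on the sense strand, was counted in the longest annotated transcript of each gene. It occurs 4 times in IGF2BP1, 5 times in DICER1, 2 times in ARID3B, and 1 time each in HMGA2, LIN28A and IGF2BP2. Sites held only by other transcripts of a gene, HMGA2 among them, are not in these counts. At least 1 site is held by 26.9% of 10715 expressed protein-coding genes, in transcripts of unequal length. A match is a description of the sequence only.

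H19 (ENSG00000130600, chromosome 11, 2016396 to 2025782, minus strand, GRCh37) had 61 counts in parental cells, 36 and 68 counts in untreated and treated clone 3, and 180 and 473 counts in untreated and treated clone 4. Clone 3 lay on both sides of the parental value and clone 4 lay above it in both libraries. Clone 4 exceeded clone 3 by 2.44 log2 in untreated and 2.89 in treated cells, a mean difference of 6.34-fold. The mean log2 ratio to parental cells was 0.96 (SD 1.70, n = 4), and 1.42 with GC correction, where untreated and treated clone 3 stood at -0.45 and 0.53. Its reciprocally imprinted neighbor IGF2, a growth factor gene, held only 1 to 10 counts in any library. The closest profile was that of IGF1R, the receptor gene for IGF ligands (distance 0.94), with 192 counts in parental cells, 123 and 144 in clone 3 and 351 and 743 in clone 4.

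KCNQ1OT1 (ENSG00000269821, chromosome 11, 2618538 to 2721233, minus strand, GRCh37) lies 593 kb from H19 in the same imprinted region. It had 1988 counts in parental cells, 4406 and 5578 counts in untreated clones 3 and 4, and 4065 and 8145 counts in treated clones 3 and 4. The EIR libraries exceeded parental cells by 2.01-fold to 4.30-fold, and both clone 4 libraries exceeded both clone 3 libraries. The EIR mean was 5597 ± 2155 normalized counts (SD, n = 4) against 2002 in parental cells, a ratio of 2.80. Its mean log2 ratio was 1.41 (SD 0.52, n = 4), and 1.76 with GC correction. The coding gene KCNQ1, a potassium channel gene in which KCNQ1OT1 is embedded on the opposite strand, held 0 to 3 counts in each library, so few reads were assigned to it by the counting.

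Of the genes listed for this imprinted region of 11p15.5, 7 were tested between EIR and parental cells: 0 rose, 3 fell and 4 did not pass, with a median log2 fold change of -0.55. In edgeR 2 of these fell. Among all genes tested, 13.2% fell with DESeq2 and 6.73% with edgeR. CDKN1C, a cell cycle inhibitor gene that KCNQ1OT1 is known to silence in cis, had 190 counts in parental cells, 8 and 2 in clone 3 and 7 and 12 in clone 4. The log2 fold change was -4.72 (SE 0.85, adjusted p 8.87e-07 by DESeq2, adjusted p 0.0202 by edgeR), and it passed in all 9 alternatives. CDKN1C has a mean below 100 normalized counts and was named after its values were seen. CD81, a tetraspanin gene, stood at 2398 normalized counts in the parental library against 1255 ± 68.5 (SD, n = 4) in the EIR libraries, a log2 difference of -0.93 (SE 0.17, adjusted p 9.28e-07 by DESeq2, 9 of 9 alternatives). SLC22A18, a transporter gene, fell by 1.06 (SE 0.43, adjusted p 0.0496 by DESeq2), and passed in only 2 of 9 alternatives, being lost without either untreated library and without the treated clone 3 library. PHLDA2, NAP1L4, TSSC4 and OSBPL5 did not pass, with log2 fold changes of -0.55 to 0.24. The 10 expressed genes within 1 Mb of KCNQ1OT1 had median log2 ratios of -0.44 to -0.37, and -0.09 to 0.05 with GC correction, at a median GC content of 60.8%. GC correction also moved the mean log2 ratios of the listed genes, to -4.39 for CDKN1C, -0.59 for CD81, -0.62 for SLC22A18, -0.10 for OSBPL5 and 0.60 for TSSC4. Between the clones 0 of 7 listed genes passed in DESeq2, and 1 passed in edgeR, where PHLDA2, a growth restraint gene of the placenta, was lower in clone 4 (log2 fold change -1.29 in DESeq2, adjusted p 0.0888 in DESeq2 and 0.0266 in edgeR).

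MEG3 (ENSG00000214548, chromosome 14, 101245747 to 101327368, plus strand, GRCh37) had 6 counts in parental cells, 6 and 8 in untreated clones 3 and 4, and 0 and 3 in treated clones 3 and 4. No library reached 10 counts, and differences between libraries were not detectable at this depth. Of the genes listed for its imprinted domain, MEG8 held 7 to 11 counts and DIO3, a gene for an enzyme that inactivates thyroid hormone, held 4 to 12. RTL1, a retrotransposon-derived gene, held 0 or 1 count in 4 libraries and 22 in treated clone 4. None of the 4 domain genes in the table received an adjusted p between EIR and parental cells in DESeq2. In edgeR 0 of 3 passed. The 8 expressed genes within 1 Mb of MEG3 had median log2 ratios to parental cells of -1.69 to -1.28, and -1.38 to -0.95 with GC correction.

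HOTAIR (ENSG00000228630, chromosome 12, 54356092 to 54368740, minus strand, GRCh37) had 181 counts in parental cells, 71 and 110 counts in untreated clones 3 and 4, and 63 and 81 counts in treated clones 3 and 4. Every EIR library lay below parental cells, and clone 4 lay above clone 3 at each treatment. The EIR mean was 81.4 ± 22.8 normalized counts (SD, n = 4) against 182 in parental cells, a ratio of parental to EIR cells of 2.24. Its mean log2 ratio was -1.20 (SD 0.39, n = 4), and -0.997 with GC correction. HOXC11 overlaps HOTAIR on the opposite strand and had between 100 and 152 counts per EIR library against 181 in the parental one, and since the use of strand in counting is not stated, reads of the overlap cannot be told apart.

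HOX genes are homeobox transcription factor genes in clusters. Of 7 HOXD genes tested between EIR and parental cells, 0 rose, 4 fell and 3 did not pass. The median log2 fold change was -2.23, and edgeR called the same number. Among all genes tested, 13.2% fell with DESeq2 and 6.73% with edgeR. These HOXD genes, and HOXC12 below, have means below 100 normalized counts and were named after their values were seen. HOXD10 was at least 51.0-fold lower in EIR cells, with 0 to 3 counts per library against 151 in parental cells. HOXD11 had 73 counts and 0 or 1, at least 24.6-fold lower. HOXD8 had 229 counts in parental cells, 35 and 42 in clone 3 and 21 and 27 in clone 4 (log2 fold change -2.90, SE 0.52, adjusted p 6.7e-07 by DESeq2). HOXD13 had 97 counts and 13 to 26 (log2 fold change -2.23, SE 0.67, adjusted p 0.00626 by DESeq2). The bounds for HOXD10 and HOXD11 are set against 3 counts per library, and their DESeq2 adjusted p was 8.21e-09 and 3.86e-05. HOXD13 did not pass with the 2 libraries per clone summed (adjusted p 0.109), and with the filter of at least 10 counts in at least 2 libraries HOXD10, HOXD11 and HOXC12 were not tested.

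Of the HOXC genes around HOTAIR, 1 of 9 fell between EIR and parental cells, where 13.2% of all genes tested fell. Another 8 did not pass and 0 rose, with a median log2 fold change of -0.56 for the list. The gene that fell was HOXC12, the neighbor of HOTAIR, at least 15.9-fold lower with 0 to 3 counts per EIR library against 47 (adjusted p 0.00399 by DESeq2). Between the clones, 3 of 8 were higher in clone 4 and 0 lower, with a median log2 fold change of 0.99. In edgeR 5 of 7 were higher. The shares of all genes tested that were higher in clone 4 were 3.31% with DESeq2 and 5.84% with edgeR. HOXC8 gave 40 and 64 counts for clone 3 against 129 and 165 for clone 4 (log2 difference 1.63, SE 0.50, adjusted p 0.0155 by DESeq2). HOXC6 had 83 and 104 against 194 and 234 (1.31, SE 0.40, adjusted p 0.016 by DESeq2), and HOXC10 had 481 and 650 against 860 and 884 (0.75, SE 0.24, adjusted p 0.0202 by DESeq2). Without the treated clone 3 library none of these 3 calls remained, and HOXC6 and HOXC8 were also lost without treated clone 4, and HOXC6 without untreated clone 3. HOTAIR itself was 0.76 log2 higher in clone 4 than in clone 3 in untreated and 0.46 in treated cells. The genes with profiles closest to HOTAIR were SPRY1 (distance 0.20), a receptor tyrosine kinase antagonist gene, NUDT13 (0.20) and ZSCAN31 (0.21).

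**Figure D2:**
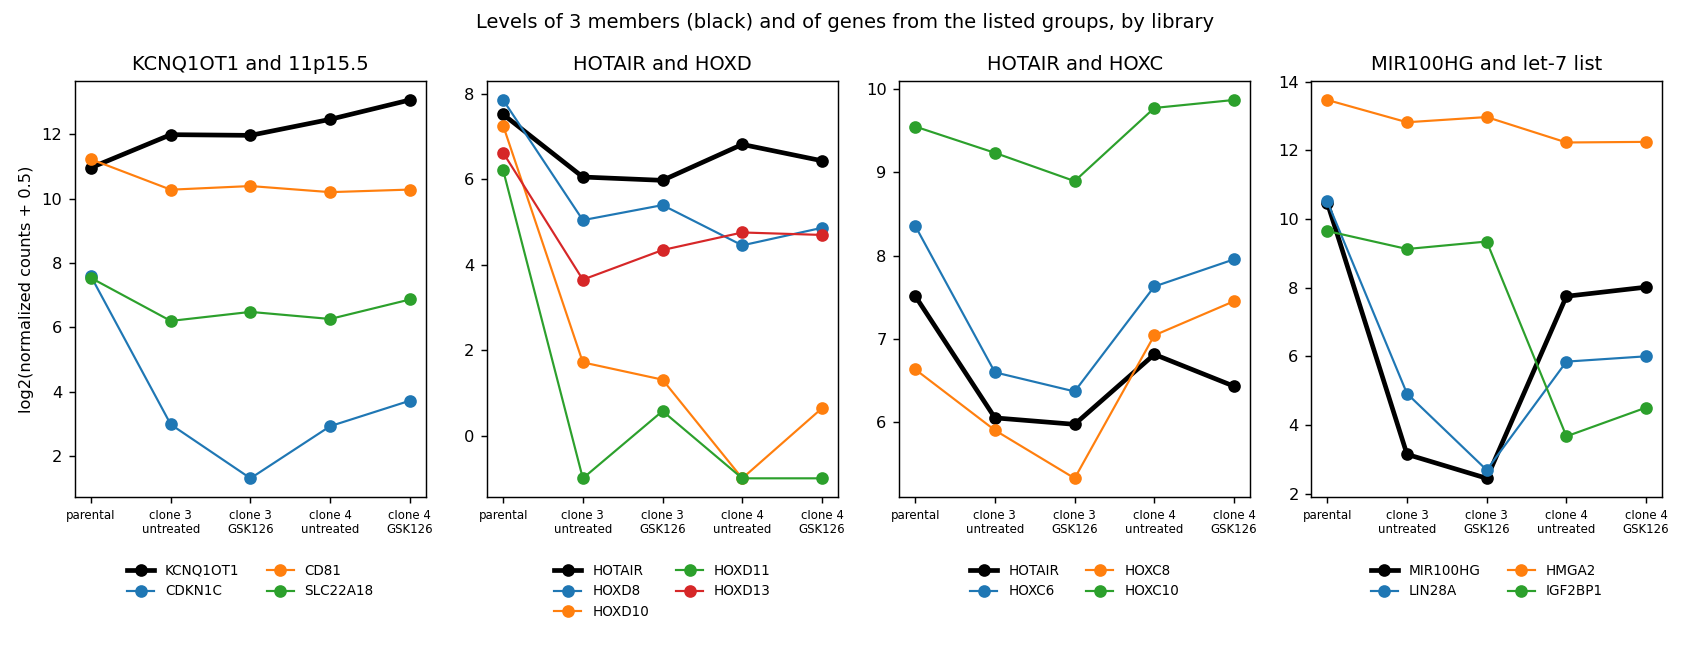
Levels on the log2(normalized count + 0.5) scale (vertical axis, separate for each panel) in the 5 libraries (horizontal axis) for KCNQ1OT1, HOTAIR and MIR100HG in black and genes from their lists in color; lines only join the 5 libraries of a gene. KCNQ1OT1 lies above and CDKN1C below its parental value in all 4 EIR libraries, HOXD11 lies at or near the bottom of the scale in all 4, and IGF2BP1 is low in clone 4 only.

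MALAT1 (ENSG00000251562, chromosome 11, 65265111 to 65275544, plus strand, GRCh37) had 76386 counts in parental cells, 157400 and 111061 counts in untreated clones 3 and 4, and 97569 and 190317 counts in treated clones 3 and 4. Parental cells were lowest, and the EIR libraries spread without an order of clone or treatment. The EIR mean was 139118 ± 46269 normalized counts (SD, n = 4), 1.81 times the parental level of 76935. The mean log2 ratio was 0.80 (SD 0.46, n = 4). MALAT1 has a low GC content (38.2%), and with GC correction the mean was 0.29, with 0.46 and -0.03 in untreated clones 3 and 4 and -0.25 and 0.96 in treated clones 3 and 4, so that the direction did not hold in 2 of 4 libraries. Among its 3 closest profiles were those of ENSG00000260772 (distance 0.25) and RFX7 (0.30), a transcription factor gene.

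NEAT1 (ENSG00000245532, chromosome 11, 65190245 to 65213011, plus strand, GRCh37) ends 52.1 kb before MALAT1 starts. It had 7883 counts in parental cells, 5682 and 2724 counts in untreated clones 3 and 4, and 3356 and 4849 counts in treated clones 3 and 4. All EIR libraries lay below parental cells, so before GC correction the 2 neighboring genes lay on opposite sides of the parental value. With GC correction MALAT1 was on the same side as NEAT1 in untreated clone 4 (-0.03) and treated clone 3 (-0.25). The EIR mean was 4120 ± 1263 normalized counts (SD, n = 4) against 7940, a ratio of parental to EIR cells of 1.93. The log2 ratios ran from -1.52 to -0.59, with a mean of -0.93 after GC correction, while the 49 expressed genes within 1 Mb of NEAT1 had medians of -0.41 to -0.22, and 0.03 to 0.07 after GC correction. PAX2, a developmental transcription factor gene, had the closest profile (distance 0.28), followed by ZNF691 (0.44) and ENSG00000218175 (0.45).

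**Figure D3:**
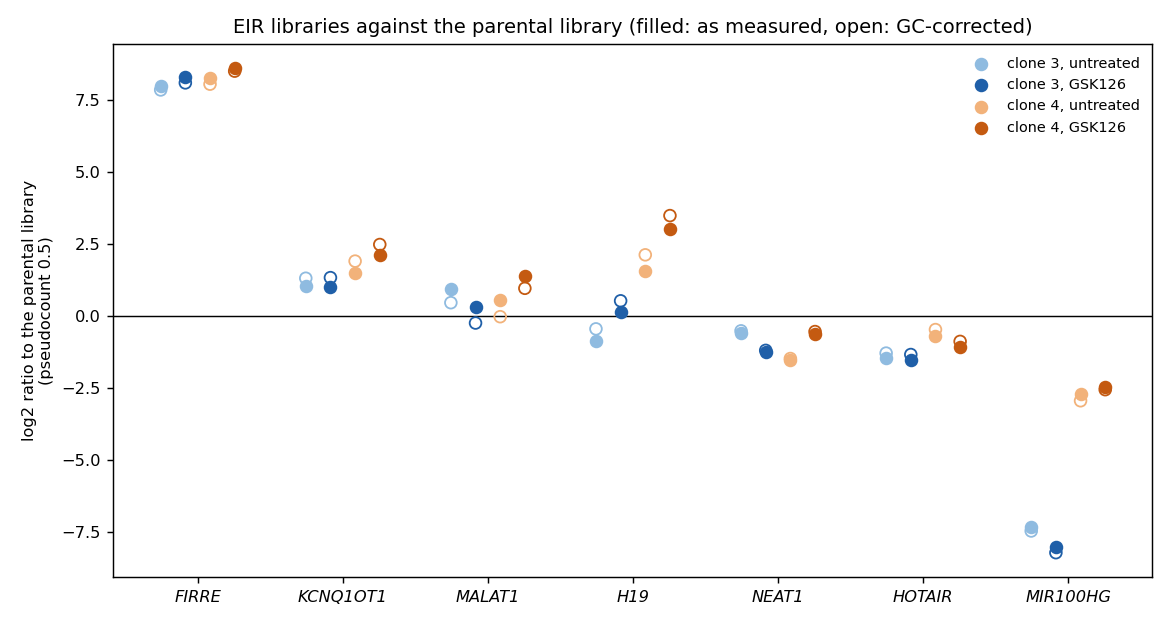
Log2 ratio of each EIR library to the parental library (vertical axis, pseudocount 0.5) for 7 transcripts, with filled points as measured and open points GC-corrected; MEG3 is left out because no library reached 10 counts. FIRRE lies near 8.28 in every library, MIR100HG splits by clone between -8.03 and -2.46, and the open MALAT1 points straddle 0.

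Of 11 genes for proteins of paraspeckles, 1 rose, 0 fell and 10 did not pass between EIR and parental cells, with a median log2 fold change of 0.30 (all tested genes 0.00), and edgeR called 0 (of all genes it called 2030, and 5604 had an unadjusted p under 0.05). The gene that rose was SFPQ, which encodes an essential paraspeckle protein, at 18461 normalized counts in the parental library against 26803 ± 2987 (SD, n = 4) in the EIR libraries. The rise was 0.54 log2 (SE 0.21, adjusted p 0.0396 by DESeq2), lost in 5 of 9 alternatives, among them those without either untreated library or the treated clone 3 library. Of 8 genes for speckle and splicing proteins, DESeq2 called 0 (of all genes 5957 had an unadjusted p under 0.05) and edgeR 0, with a median of 0.25 against the same 0.00. Between the clones DESeq2 called 0 genes in both lists, where 3270 of all genes had an unadjusted p under 0.05, and edgeR called 1 paraspeckle gene and 0 speckle genes.

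Other regulatory long non-coding RNAs were examined as a list of 28. Of 24 tested between EIR and parental cells, 4 rose, 2 fell and 18 did not pass, with a median log2 fold change of 0.38, and edgeR called 1 higher and 0 lower. Over all genes tested 25.5% passed with DESeq2 and 11.2% with edgeR, so the list was not called more often than genes at large. UCA1, an RNA reported in urothelial and other carcinomas, had 9 counts in parental cells, 95 and 140 in clone 3 and 223 and 391 in clone 4 (log2 fold change 4.58, SE 0.93, adjusted p 1.53e-05 by DESeq2, adjusted p 0.0638 by edgeR). MIR22HG, the host of miR-22, rose from 154 counts in the parental library to between 338 and 423 in the EIR libraries (1.32, SE 0.25, adjusted p 3.94e-06 by DESeq2, adjusted p 0.0259 by edgeR), and passed in 9 of 9 alternatives. FTX, an RNA of the X inactivation center, passed at 0.95 (SE 0.38, adjusted p 0.0489 by DESeq2) but in 0 of 9 alternatives. CRNDE fell by 0.80 (SE 0.28, adjusted p 0.0211 by DESeq2) and passed in 4 of 9, being lost without either clone 3 library and without treated clone 4. Between the clones, 4 of 24 were higher in clone 4 and 0 lower, by both tools. Over all genes 3.31% were higher and 6.52% lower with DESeq2, and 5.84% and 9.46% with edgeR. UCA1 was higher by 1.47 (SE 0.35, adjusted p 0.00053 by DESeq2), HOTAIRM1, an antisense RNA of the HOXA cluster, by 0.77 (SE 0.27, adjusted p 0.0437 by DESeq2), and DLEU2 by 0.61 (SE 0.20, adjusted p 0.0286 by DESeq2). The fourth, MIR31HG, has a mean below 100 normalized counts and was named after its values were seen (1.91, SE 0.57, adjusted p 0.0124 by DESeq2). Without untreated clone 3 none of these 4 remained, and without treated clone 3 UCA1 alone did.

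Across all annotated long non-coding RNAs, 164 were higher and 49 lower in EIR cells among 1743 tested with DESeq2. This was 12.2% called, below the 25.5% of all genes, with a median log2 fold change of 0.32 against 0.00 over all genes. In edgeR 52 were higher and 27 lower among 2355, or 3.35% called against 11.2% of all genes. The class held 1.09% of counts in the parental library against 1.19% to 1.83% in the EIR libraries. These shares include MALAT1, which alone held 0.256% in the parental library and 0.333% to 0.747% in the EIR libraries.

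GSK126-treated against untreated EIR cells was the comparison in which the members could be tested, since they are not known to have been chosen from it. DESeq2 called 0 of the 8 members, each with an adjusted p of 0.9999. Over all genes it called 1 of 29847 (0.00335%), with 117 at an unadjusted p under 0.05, and edgeR called 0 with 81 at an unadjusted p under 0.05. In each of the gene lists above, 0 genes passed with either tool. The log2 fold change of FIRRE was 0.31 (SE 0.39), with a 95% interval of -0.45 to 1.06. For MIR100HG it was 0.23 (SE 2.39) with an interval of -4.46 to 4.92, and of -1.09 to 1.01 with the clone as replicate block. For HOTAIR it was -0.27 (SE 0.56), with an interval of -1.36 to 0.82. It was 0.36 (SE 0.41, interval -0.44 to 1.16) for KCNQ1OT1, and without the block the intervals of these 4 members include a change of 2-fold. With the block KCNQ1OT1 was at 0.28 (SE 0.19), and its interval of -0.10 to 0.66 does not include 2-fold. The block intervals of FIRRE (-0.46 to 1.07) and HOTAIR (-1.27 to 0.78) do. Without the block the log2 fold change was 0.19 (SE 0.39, interval -0.57 to 0.95) for MALAT1 and 0.06 (SE 0.39, interval -0.71 to 0.83) for NEAT1. With the block their intervals were -0.83 to 1.04 and -1.31 to 1.51. MEG3 had the log2 fold change -2.13 (SE 2.25) on 0 to 8 counts. These intervals do not show that the members were unaffected.

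H19 was higher in the treated library of both clones, 68 against 36 counts in clone 3 and 473 against 180 in clone 4, or 1.00 and 1.45 on the log2 scale. Its log2 fold change was 1.38 (SE 1.54, 95% interval -1.63 to 4.39, adjusted p 0.9999 by DESeq2). With the clone as replicate block it was 1.25 (SE 0.38, interval 0.50 to 1.99), with an unadjusted p of 0.00106 in DESeq2 and 0.00054 in edgeR, and adjusted p of 0.9999 and 0.585, so it did not pass the correction in either. Over all genes this block gave 0.0134% called in DESeq2 (0.0101% higher) and 0.00604% in edgeR, all of the latter lower. FIRRE was also higher in the treated library of both clones, by 0.30 and 0.33. The same direction in both clones was seen in 2983 of 11564 expressed genes.

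The differences of MALAT1 and NEAT1 had opposite signs in the clones. In clone 3 the treated library was lower, by -0.60 for MALAT1 and -0.67 for NEAT1, and 99.6% and 99.7% of expressed genes had a value at least as high. In clone 4 the treated library was higher, by 0.83 and 0.89, and only 2.78% and 2.44% of expressed genes had a value at least as high. KCNQ1OT1 differed by -0.02 in clone 3 and 0.60 in clone 4. The speckle scaffold genes SON (-0.20 and 0.84) and SRRM2 (-0.40 and 1.23), chosen here after their values were seen, showed the same signs in clones 3 and 4. In their list these signs were seen in 3 of 8 genes, as in 3 of 11 paraspeckle genes and 2194 of 11564 expressed genes, while 4 and 6 listed genes were lower in both clones. With 1 library per clone and treatment none of these clone differences could be tested. Over all expressed genes, 31 differed at least 2-fold between the libraries of clone 3 and 264 between those of clone 4, whose treated library also had the lowest total count. In clone 4 the median log2 ratio was 0.07 in the quartile of genes with the longest genomic span. It was -0.08 to -0.04 in the other quartiles. MALAT1 and NEAT1 span 10.4 and 22.8 kb, and the part of this trend in their values was not tested.

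**Figure D4:**
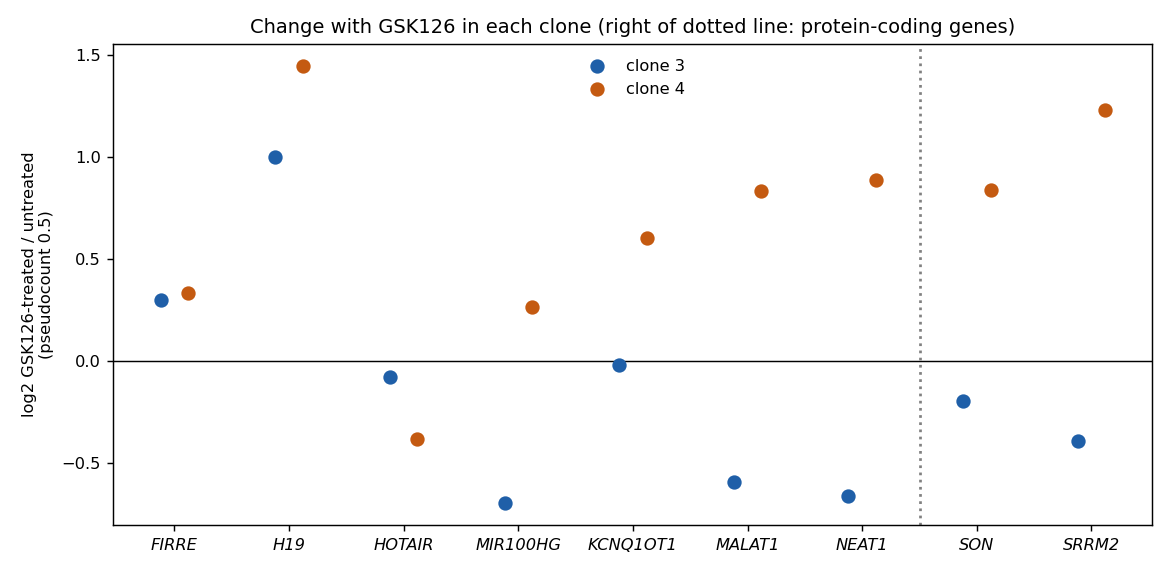
Log2 ratio of the GSK126-treated to the untreated library (vertical axis, pseudocount 0.5) in clone 3 and clone 4 for 7 transcripts and, right of the dotted line, 2 protein-coding genes of speckles; each point is 1 pair of libraries, with no error bar. MALAT1 and NEAT1 lie at -0.60 and -0.67 in clone 3 and at 0.83 and 0.89 in clone 4, while H19 lies above 0 in both clones.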

How the data were processed

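TruSeq total RNA libraries were sequenced as 75 bp paired-end reads. Alignment to hg19 by the authors used bowtie2, and RSEM with Ensembl gene models of unnamed release gave the estimates. What the authors deposited are these expected counts (estimated counts) as rounded whole numbers without normalization (0 values were not whole). RSEM divides reads shared by overlapping or similar genes by estimation, and the use of strand in counting is not stated. The labels gave each library its group and clone, and a single column carried no clone tag, which was matched to the parental sample.

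Symbols, coordinates, length and GC content came from GENCODE 44 mapped to GRCh37 (29203 of 30476 identifiers matched, 95.8%). GENCODE gives the exon union used for levels per kilobase. Total counts were 25479238 to 30764963 per library, and limits for a count of 0 (3 counts) cover counting error only.

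Differential expression was tested over all genes by the Wald test of DESeq2 1.42.0 (R 4.3.3, two-sided, Benjamini-Hochberg adjusted p under 0.05), the tool of the study: 4 EIR libraries against 1 parental library, GSK126-treated against untreated EIR cells, and clone 4 against clone 3 with treatment as covariate. The alternatives were the quasi-likelihood test of edgeR 4.0.16 with TMM factors, DESeq2 scaled by TMM or by total counts, a filter of at least 10 counts in 2 libraries, leaving out each EIR library, summing the libraries of each clone, the treatment covariate dropped, and the clone as replicate block. The fits were tested on simulated data. The libraries are paired by the clone number in the labels, since both clones were profiled at both treatments. Deviations of same-clone libraries from their group means correlated at r = 0.862 across 11564 genes, which are not independent replicates.

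Per-library log2 ratios used a pseudocount of 0.5, with GC correction by the median of expressed genes in bins of 5 percentage points. From each list, up to 4 genes were named, those of largest absolute log2 fold change that passed the threshold and averaged at least 100 normalized counts, and for each member averaging 20 or more normalized counts the 3 genes of nearest profile. The members and gene lists were chosen with earlier results of these data known. INS, HOXD12, DLK1 and MEG9 were listed but not analysed here, nor were the promoters of NEAT1, HOTAIR and KCNQ1OT1, and a few genes that these rules or lists hold are not reported here.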

Additional observations from a re-analysis of the deposited data

Results flagged for a closer look

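For 4 of 8 members the treated library was lower than the untreated one in clone 3 and higher in clone 4. The same signs were seen in 2194 of 11564 expressed genes. The log2 difference of the treated from the untreated library was -0.70 in clone 3 and 0.27 in clone 4 for MIR100HG, whose clone 3 libraries held only 9 and 5 counts. It was -0.60 and 0.83 for MALAT1, -0.67 and 0.89 for NEAT1, and -0.022 and 0.60 for KCNQ1OT1. The clone 3 difference of KCNQ1OT1 was smaller in size than the SD of this ratio over expressed genes (0.24). The difference between clones was not tested, because each clone has 1 library per treatment. No member had an EIR library set apart from the other 3 beyond the 95% critical value of the Dixon test.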

How the results depend on the processing

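Counts of called genes depended on the tool and on single libraries. Between EIR and parental cells DESeq2 called 4157 genes, edgeR 2030, and DESeq2 on the summed libraries of each clone 1914; leaving out each EIR library gave 2837 to 4024. Between the clones the count was 1739, and 831 (without treated clone 3) to 2800 (without untreated clone 4) with each library left out; untreated clone 3 left out gave 876. With GSK126 the count was 1 with DESeq2, 0 with edgeR, and 1 to 25 with each library left out, the highest without untreated clone 3; the replicate block gave 4 in DESeq2 and 1 in edgeR. The pairing by clone changed no call of a member.

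For the members, the GSK126 log2 fold change of MIR100HG was -0.037 with the replicate block in DESeq2 against 0.23 without it. With each library left out the log2 fold changes ranged from -4.50 to 3.96 for MIR100HG, -0.43 to 0.61 for MALAT1, -0.34 to 0.60 for NEAT1, -0.69 to 3.07 for H19, -0.60 to 0.15 for HOTAIR and -0.29 to 0.80 for KCNQ1OT1. These fits have no clone term, so that leaving out 1 library leaves the clones unbalanced. Within clones 3 and 4 H19 was higher in both treated libraries (1.00 and 1.45) and HOTAIR lower in both (-0.08 and -0.38), and the replicate block gave 1.25 and -0.25 in DESeq2. None passed an adjusted p of 0.05 in any alternative (0.585 to 1). Clone 4 minus clone 3 was -0.37 and 1.06 for MALAT1 and -0.92 and 0.63 for NEAT1 in untreated and treated cells. For MIR100HG the mean of this difference was 4.38 with a pseudocount of 5 against 5.09. The mean log2 ratio of FIRRE to parental cells was 5.00 with a pseudocount of 5 against 8.28, as the parental count is 0. No other member's ratio to parental cells changed by more than the spread between libraries, apart from MALAT1 with GC correction (0.29 against 0.80). Of 308 list counts under alternatives, 271 stayed within 1.5 times the main count and 37 did not. Many of the 271 set 0 against 0 and do not measure stability. Among them are all list counts with GSK126 and those of the hosted precursors, of which 0 were in the table. With fewer than 10 counts in every library, MEG3 is limited by depth.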
